A study of Mus musculus with 158 samples.

Results

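Short hairpin RNAs (shRNAs, designed sequences that each knock down 1 gene) against the inflammatory genes Il1a and Nfkbiz were followed through a pooled screen in mouse pancreatic cancer cells. Every hairpin annotated to either gene was taken, each in the libraries of its own pool. This gave 8 of the 1000 targeting hairpins, which covered 285 genes in 19 pools. The 4 Il1a hairpins (TRCN0000067048, TRCN0000067049, TRCN0000067050 and TRCN0000067051) all lay in pool 6. The 4 Nfkbiz hairpins were split, with TRCN0000081761 and TRCN0000081762 in pool 11 and TRCN0000360677 and TRCN0000360678 in pool 19. Each of these 3 pools held 52 targeting hairpins and the 8 control hairpins common to every pool. All 8 hairpins had a mean of at least 10 reads in each comparison and were tested.

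Il1a encodes interleukin-1 alpha, a cytokine that acts as an alarm signal when cells are stressed or damaged. It binds the interleukin-1 receptor, which signals through MyD88 and IRAK kinases to the transcription factor NF-kB. Nfkbiz encodes IκBζ, a nuclear protein induced by interleukin-1 and Toll-like receptor signalling that binds NF-kB subunits and is needed for part of the secondary response, including several cytokine and antimicrobial genes. In pancreatic cancer, interleukin-1 made by tumour cells is known to induce an inflammatory state in neighbouring fibroblasts.

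The cells were PDA530 Met, a mouse pancreatic adenocarcinoma line taken from a liver metastasis, infected with virus of 1 pool and selected with puromycin. 3 groups were compared: cells pelleted at day 0, cells kept in culture to day 28, and lung tumours at day 28 after injection into the tail vein, with the tumours of a mouse combined. Pools 6 and 11 had 3 libraries in each group, and pool 19 had 3, 4 and 3. No age or strain of the mice is given in the labels. The protocol speaks of 1 pellet per pool at day 0 and names no separate infections, so p-values measure the spread between libraries, which may be technical. Culture libraries named for 2 pools (6/7, 10/11 and 18/19) hold cells of both, and each pool was read within its own hairpins; 1 culture library of pool 19, 19D, held that pool alone.

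Day 0 libraries of these pools held between 4670677 and 8191371 reads. Culture libraries held between 4525346 and 8754623, and lung libraries between 58189 and 7879835. The lung library 6A was the shallow one, and 6B held 358742 reads. In lung library 6C, 74.4% of the reads were control hairpins, against 29.6% and 29.0% in 6A and 6B. The lowest count of any of the 8 hairpins was 107 reads (exact Poisson 95% interval 87.7 to 129, which covers counting error only). Replicate libraries of each group differed by more than counting error (chi-square tests over the pool's hairpins). Transcript or protein levels of Il1a and Nfkbiz were not analysed here, so how far each hairpin lowered its target is unknown.

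Levels are given as CPM, counts per 1000000 targeting reads of the pool, with TMM scaling over all libraries of the pool. A level is a share, so it moves when other hairpins of the pool move. Log2 fold changes and p-values come from limma on log2(CPM + 1), fitted within each pool. The p-values were then adjusted by the Benjamini-Hochberg method over the hairpins of all pools, and an adjusted p under 0.05 passed. Changes relative to the pool are the log2 fold change minus the median of the pool's hairpins against other genes. Another scaling moved most hairpins of a pool by about the same amount. In pool 6, scaling on the control hairpins moved the 51 hairpins tested by a median of -1.01 in culture and of -1.53 in lungs (from -1.53 to -1.19), both against day 0. The deposited values moved them by -0.73 and -1.31. In pool 19 some hairpins departed further from the common shift: the deposited values moved its 52 hairpins by a median of -0.35 in lungs against day 0 (from -1.83 to -0.27) and of 0.71 in lungs against culture (from -0.54 to 0.72). Culture libraries named for 2 pools also hold the control hairpins of both. In 6/7A pool 6 hairpins held 35.5% of the reads and controls 23.8%, against 70.1% and 29.7% in day 0 library 6A. Dividing by the controls thus lowers the whole pool in such a culture library. A lower call in culture that comes with the pool moved down is therefore not read as a change of that hairpin. Over TMM, library totals, control hairpins, deposited values and median centring, the changes of the 8 hairpins relative to their pool kept their sign in all 3 comparisons, as a shift common to the pool leaves them.

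The 4 Il1a hairpins, among the 52 targeting hairpins of pool 6, did not move together. Their joint share of the pool's targeting reads was 10.9% ± 0.307 at day 0, 12.3% ± 0.944 in culture and 16.9% ± 5.05 in lungs (SD, n = 3 each). In the lung libraries it was 13.3% in 6A, 22.6% in 6B and 14.6% in 6C. TRCN0000067049 alone held 18.6% in 6B. All 3 lung shares lay above the 3 day 0 shares, which ranged from 10.6% to 11.2%. Within this sum, hairpins TRCN0000067048 and TRCN0000067049 were the abundant pair, and TRCN0000067050 and TRCN0000067051 were the rarer pair that was lower in lungs.

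TRCN0000067048 was at 29876, 29137 and 33867 CPM in day 0 libraries A, B and C. It was at 65838, 45289 and 61124 CPM in cultures 6/7A, 6/7B and 6/7C, and at 87171, 43420 and 69633 CPM in lungs 6A, 6B and 6C. Every culture and every lung library was above every day 0 library, while cultures and lungs overlapped. The hairpin was 2.72 ± 0.262 times the median hairpin of the other genes at day 0, 5.51 ± 1.10 times in culture and 6.77 ± 3.33 times in lungs (SD, n = 3 each). It rose in lungs against day 0 by a log2 fold change of 1.15 (SE 0.25, limma adjusted p = 0.00745) and in culture by 0.88 (SE 0.14, limma adjusted p = 0.000266). Lungs against culture gave 0.13 (SE 0.27, limma adjusted p = 0.742). The rise in lungs was 0.80 without lung library 6A and no longer passed (limma adjusted p = 0.0749). Relative to the pool the changes were 1.17 in lungs and 1.10 in culture. With the pool moved down by the control scaling the fold changes themselves were -0.39 and -0.14, while the relative ones were 1.17 and 1.10 under that scaling too.

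TRCN0000067049 was at 38433, 37711 and 41663 CPM in the 3 day 0 libraries. It was at 48860, 39083 and 42011 CPM in culture and at 50344, 239296 and 91305 CPM in lungs 6A, 6B and 6C. The lung libraries differed most for this hairpin: in 6B it was the most abundant of the 52 hairpins, with 18.6% of the targeting reads, and in 6A it was eighth. All lung libraries lay above all day 0 and culture libraries. Even so the fold changes did not pass, at 1.49 for lungs against day 0 (SE 0.54, limma adjusted p = 0.0742) and 1.21 for lungs against culture (SE 0.68, limma adjusted p = 0.254). Without lung library 6A they were 1.89 and 1.83 and passed (limma adjusted p = 0.0191 and 0.00327). Leaving out lung replicate B, which holds the high value, gave 0.82 and 0.65, and these passed as well (limma adjusted p = 0.0217 and 0.0160). Lungs against day 0 passed under 7 of the 25 alternatives run. Among them were DESeq2 (1.82, DESeq2 adjusted p = 0.00016) and median centring (1.54, limma adjusted p = 0.0281). In culture against day 0 the change was 0.14 (SE 0.10, limma adjusted p = 0.262). Relative to the pool it was 1.51 for lungs and 0.36 for culture, both against day 0. The control scaling and the deposited values, which moved the pool down, gave -0.044 and 0.18 for lungs against day 0. Neither passed (limma adjusted p = 0.975 and 0.862), and the relative value was 1.51 under both. With the pool moved down, the culture value was -0.87 under the control scaling and -0.59 with the deposited values and was called lower (limma adjusted p = 9.97e-05 and 0.000526), with the relative value at 0.36 under both.

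TRCN0000067050, the rarest of the 4, was at 5764, 5837 and 5064 CPM at day 0. It was at 6167, 8085 and 9690 CPM in culture and at 2952, 1798 and 1318 CPM in lungs. The 3 groups did not overlap, with culture above day 0 and lungs below both. From 0.487 ± 0.0402 times the median hairpin at day 0 it went to 0.764 ± 0.167 in culture and 0.206 ± 0.123 in lungs (SD, n = 3 each). It fell in lungs against day 0 by 1.44 on the log2 scale (SE 0.46, limma adjusted p = 0.0366) and in lungs against culture by 2.08 (SE 0.52, limma adjusted p = 0.00314). It rose in culture by 0.50 (SE 0.19, limma adjusted p = 0.0399). Relative to the pool these were -1.42, -1.83 and 0.73. With the pool moved down, the culture value was -0.51 under the control scaling and was called lower (limma adjusted p = 0.0285), and -0.23 with the deposited values, with the relative value at 0.73 under both. The fall against culture ranked 46 of the 51 pool 6 hairpins tested, counted from the highest, and was -1.94 without culture replicate C (limma adjusted p = 0.0640). Under the control scaling it was -2.46 and with the deposited values -2.52, both larger in size with the pool moved down, and neither passed (limma adjusted p = 0.136 and 0.0614).

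TRCN0000067051 was at 15422, 15901 and 14256 CPM at day 0. It was at 14489, 16300 and 14272 CPM in culture, inside nearly the same range, and at 8469, 7212 and 10406 CPM in lungs. Lungs lay below both other groups with no overlap. It fell in lungs against day 0 by 0.73 (SE 0.24, limma adjusted p = 0.0413). The culture change was -0.018 (SE 0.11, limma adjusted p = 0.910). Relative to the pool it was -0.70 in lungs and 0.21 in culture. With the pool moved down, the culture value was -1.03 under the control scaling and -0.74 with the deposited values and was called lower (limma adjusted p = 5.02e-05 and 0.000227), with the relative value at 0.21 under both. Lungs against culture gave -0.85 (SE 0.40, limma adjusted p = 0.123). This was -1.02 without lung library 6C and, with the pool moved by -0.20, -1.05 with library totals, and both passed (limma adjusted p = 0.0285 and 0.0336).

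The lower lung calls of TRCN0000067050 and TRCN0000067051 were lost when 1 day 0 replicate letter was left out, which removed it from every pool at once. Over all hairpins, the 301 calls became 148, 154 and 160 without day 0 replicate A, B or C, so such losses were not particular to these hairpins. Without day 0 replicate A, B or C the values were -1.41, -1.40 and -1.51 for TRCN0000067050 (limma adjusted p = 0.148, 0.153 and 0.114). For TRCN0000067051 they were -0.71, -0.69 and -0.78 (limma adjusted p = 0.189, 0.215 and 0.142). Sizes and directions hardly moved, while none passed. Median centring gave -1.39 for TRCN0000067050 and -0.68 for TRCN0000067051, and neither passed (limma adjusted p = 0.0507 and 0.0651). With edgeR, TRCN0000067051 did not pass at -0.72 (edgeR adjusted p = 0.0511), while TRCN0000067050 did at -1.39 (edgeR adjusted p = 0.0452). Under the control scaling, which moved the pool down, the values were -2.97 and -2.26, larger in size, and did not pass (limma adjusted p = 0.0691 and 0.0971). Controls held 74.4% of the reads in lung library 6C, but 29.6% in 6A and 29.0% in 6B, near the 29.7% of day 0 library 6A. The control scaling was not run without 6C. The culture rise of TRCN0000067050 was also lost without day 0 replicate A, B or C, at 0.53, 0.54 and 0.44 (limma adjusted p = 0.0795, 0.0657 and 0.154). Without culture replicate C it was lost at 0.39 (limma adjusted p = 0.0524).

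The Nfkbiz hairpins showed a different arrangement. In culture all 4 changed, and in each of the 2 pools 1 hairpin rose while the other fell. Of all hairpins tested, 75% passed in culture in pool 11 and 42.3% in pool 19. The comparison of lungs with culture passed for 3 of the 4, where 38.5% of pool 11 and 26.9% of pool 19 passed.

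In pool 11, TRCN0000081761 was at 8776, 8155 and 6896 CPM at day 0. It was at 22627, 19836 and 21316 CPM in cultures 10/11A, 10/11B and 10/11C and at 10295, 6571 and 4181 CPM in lungs 11A, 11B and 11C. Culture stood above both other groups, and day 0 and lungs overlapped. Relative to the median hairpin it was at 0.608 ± 0.0658 times at day 0, 2.17 ± 0.0582 times in culture and 0.846 ± 0.295 times in lungs (SD, n = 3 each). It rose in culture by 1.72 (SE 0.13), the third highest of 52 hairpins of the pool, with a limma adjusted p = 1.47e-26. The variance prior of limma was unbounded in pool 11 for that comparison, so this p rests on the fitted trend. The highest adjusted p over the alternatives was 0.00824. It was lower in lungs than in culture by -1.91 (SE 0.41, limma adjusted p = 0.00462), by -1.59 without culture replicate A (limma adjusted p = 0.0787) and by -1.02 under the control scaling (limma adjusted p = 0.0516), which moved the pool by 0.89. Relative to the pool it was 1.96 in culture against day 0 and -1.77 in lungs against culture. Lungs against day 0 gave -0.27 (SE 0.36, limma adjusted p = 0.605). Median centring moved the pool by 0.59 and this value to 0.32, and the value relative to the pool was -0.26 under both scalings.

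TRCN0000081762 was the rarest hairpin of pool 11 in every day 0 library, at 357, 397 and 430 CPM, from 1428 to 1473 reads. It was at 152, 69.5 and 82.0 CPM in culture and at 557, 567 and 400 CPM in lungs. Culture was below both other groups, and lungs overlapped with day 0. It fell in culture by 1.74 (SE 0.44, limma adjusted p = 0.000387). With the unbounded variance prior of pool 11, this p rests on the fitted trend too. The highest over the alternatives was a limma adjusted p = 0.0152, without day 0 replicate B. TRCN0000081762 was higher in lungs than in culture by 2.17 (SE 0.56, limma adjusted p = 0.0136), the highest value of the 52 pool 11 hairpins. Without lung replicate B, culture replicate B or culture replicate C this was 2.29, 2.03 and 2.02 and did not pass (limma adjusted p = 0.0547, 0.0594 and 0.0783). Lungs against day 0 gave 0.35 (SE 0.25, limma adjusted p = 0.325). The culture values rest on 141 to 308 reads.

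In pool 19, TRCN0000360677 was at 3688, 2825 and 3255 CPM in day 0 libraries A, B and D. It was at 11396, 10300 and 14453 CPM in cultures 18/19A, 18/19B and 18/19C, at 19566 CPM in 19D, and at 6379, 4973 and 5051 CPM in lungs 19A, 19B and 19D. The 3 groups did not overlap, with lungs between day 0 and culture. The hairpin rose in culture by 2.06 (SE 0.28, limma adjusted p = 0.000151), the fourth highest of the pool. The control scaling and the deposited values moved the pool by -0.99 and -1.03. They gave 1.07 and 1.03, which did not pass (limma adjusted p = 0.107 for each). Pool 19 hairpins and controls held 29.8% and 15.1% of the reads in the mixed culture 18/19A, and 74.0% and 25.5% in 19D. The control scaling therefore shifts the mixtures and 19D by unlike amounts. Its part in the lost call was not tested. TRCN0000360677 was lower in lungs than in culture by -1.35 (SE 0.37, limma adjusted p = 0.0167). Without culture replicates B, C or D this was -1.42, -1.21 and -1.08 and did not pass (limma adjusted p = 0.0536, 0.179 and 0.0504). It was -0.70 under the control scaling, -0.64 with the deposited values and -1.06 with library totals, which moved the pool by 0.65, 0.71 and 0.29, and none of these passed (limma adjusted p = 0.421, 0.450 and 0.110). Relative to the pool it was between -1.21 and -1.15 under these scalings. Lungs against day 0 gave 0.75 (SE 0.28, limma adjusted p = 0.0863), and 0.81 without lung replicate B (limma adjusted p = 0.0365).

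TRCN0000360678 was at 10996, 12275 and 12169 CPM at day 0. It was at 6636, 3885 and 6446 CPM in cultures 18/19A, 18/19B and 18/19C, at 6078 CPM in 19D, and at 6660, 6965 and 8072 CPM in lungs. Both later groups lay below day 0, with lungs just above culture. It fell in culture by 1.07 (SE 0.26, limma adjusted p = 0.00566) and in lungs by 0.71 (SE 0.21, limma adjusted p = 0.0458). Relative to the pool these were -1.08 and -0.65. With the pool moved down, the culture value was -2.05 under the control scaling and -2.09 with the deposited values. The lung value was -1.08 and -1.06 under these scalings. The values relative to the pool stayed at -1.08 and -0.65. Lungs against culture gave 0.32 (SE 0.37, limma adjusted p = 0.550). The call in lungs was lost without lung replicates A or D, at -0.65 and -0.95 (limma adjusted p = 0.0765 and 0.0555). With edgeR and with all 3 groups in 1 fit it was lost at -0.71 (edgeR adjusted p = 0.0542 and limma adjusted p = 0.0950). It was also lost without day 0 replicates A, B, C or D, at -0.89, -0.68, -0.71 and -0.69 (limma adjusted p = 0.159, 0.184, 0.0685 and 0.114). Pool 19 has no day 0 library C, so in that case it is the adjustment over the other pools that moved.

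Counted together, 4 of the 8 hairpins passed for lungs against day 0, 1 higher and 3 lower, where 33.8% of all 891 hairpins tested passed, 14.7% higher and 19.1% lower. For culture against day 0, 6 passed, 4 higher and 2 lower, where 60.6% of 945 passed, 28.8% higher and 31.9% lower. For lungs against culture, 4 passed, 1 higher and 3 lower, where 24.9% of 889 passed, 11.6% higher and 13.3% lower. Within pool 6, 45.1%, 78.4% and 37.3% of hairpins passed in these comparisons, in pool 11 38.5%, 75% and 38.5%, and in pool 19 28.8%, 42.3% and 26.9%. The counts of 8 hairpins are small against such shares, and nothing particular to these genes is read from them. The median change of the 8 was 0.041, 0.32 and -0.36, against -0.13, -0.10 and -0.11 over all hairpins tested. The comparisons with day 0 share their day 0 libraries.

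Hairpins of 1 gene called in opposite directions were common in the whole screen. Of the sets of hairpins with the same target and pool that had at least 2 calls, 40 of 65 held both directions for lungs against day 0, 94 of 159 for culture against day 0 and 19 of 37 for lungs against culture. Il1a was among these sets for lungs against day 0, both Nfkbiz pairs for culture against day 0, and the pool 11 Nfkbiz pair also for lungs against culture. Across the libraries of a pool, log2(CPM + 1) of the Nfkbiz pair correlated at r = -0.83 in pool 11 (9 libraries) and -0.78 in pool 19 (10 libraries). Among Il1a hairpins, TRCN0000067050 and TRCN0000067051 correlated at 0.82, and TRCN0000067049 and TRCN0000067051 at -0.83, over 9 libraries. These correlations are descriptions, since hairpins of a pool share libraries, depth and a common total.

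For 7 of these hairpins, the hairpin of another gene with the most similar profile was named by the same correlation, the highest of 47 candidates in pool 6 and of 50 in pools 11 and 19. For TRCN0000067048, TRCN0000067049 and TRCN0000067051 these were hairpins against Hsf2 (r = 0.89), Rnf4 (0.82) and Grik2 (0.96). For TRCN0000081761 and TRCN0000081762 they were hairpins against Dennd2c (0.87) and Bzw2 (0.95), and for TRCN0000360677 and TRCN0000360678 against BC004004 (0.87) and Rpa3 (0.78). Hsf2 is a heat shock transcription factor, Rnf4 a ubiquitin ligase, Grik2 a glutamate receptor subunit and Rpa3 a subunit of the single-stranded DNA binding protein RPA.

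Control hairpins with no mouse target also differed between lungs and day 0 in the same libraries. Scaled like the targeting hairpins, Non-targeting-shRNA-1 differed between lungs and day 0 by 2.23 on the log2 scale in pool 6, 0.38 in pool 11 and 1.20 in pool 19. Non-targeting-shRNA-2 differed by -4.57, -3.00 and -3.60, and the hairpin against GFP by 0.025, -0.54 and 0.034. Without lung library 6C the pool 6 values were 0.91, -4.25 and 0.25. The lung changes of the 8 Il1a and Nfkbiz hairpins, from -1.44 to 1.49, lay inside the range of these 3 controls in pools 6 and 19. Without lung library 6C, the 1.10 of TRCN0000067048 and the 1.59 of TRCN0000067049 lay above the 3 controls of pool 6. In pool 11 the range was -3.00 to 0.38, and the Nfkbiz values of -0.27 and 0.35 lay inside it too. The controls were not compared in culture, where most libraries hold those of 2 pools.

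Reads of these hairpins in libraries of other pools give the background of the assay. TRCN0000081762 had no read in any of the 53 day 0, 34 culture and 46 lung libraries of other pools. TRCN0000067048 had reads in 21 of 53 day 0, 20 of 34 culture and 22 of 46 lung libraries of other pools, with at most 79.9 reads per 1000000 at day 0 (library 4A) and 246 in lungs (library 11A). In the 9 libraries of pool 6 it held 3.37% to 7.79% of the pool's targeting reads.

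The library held few other genes of interleukin-1 and NF-kB signalling. Of a list of 146 pathway genes, 6 besides Il1a and Nfkbiz were targeted, by 21 hairpins: the chemokines Cxcl3, Cxcl5 and Ccl20, which are NF-kB target genes, the death receptor Tnfrsf10b, the prostaglandin E synthase Ptges3 and the MAP kinase phosphatase Dusp4. Of these 21 hairpins, 7 were higher and 4 lower in lungs against day 0, where 14.7% of all hairpins were higher and 19.1% lower, with a median log2 fold change of 0.39 against -0.13 over all hairpins. In culture against day 0, 12 were higher and 6 lower, where 28.8% and 31.9% of all hairpins were (median 0.75 against -0.10). For lungs against culture, 3 were higher and 4 lower, where 11.6% and 13.3% of all hairpins were (median -0.23 against -0.11). For lungs against day 0 the called hairpins with the largest changes were TRCN0000067115 against Cxcl3 (1.97, SE 0.22, limma adjusted p = 0.00481) and TRCN0000054350 against Dusp4 (-1.76, SE 0.44, limma adjusted p = 0.0285). For lungs against culture they were TRCN0000067707 against Ccl20 (2.52, SE 0.73, limma adjusted p = 0.00631) and TRCN0000054351 against Dusp4 (-2.64, SE 0.32, limma adjusted p = 0.000207). Hairpins of these genes also went both ways: of the 4 against Cxcl3 in pool 9, TRCN0000067115 rose in lungs and TRCN0000067116 fell (-0.92, limma adjusted p = 0.00568).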

How the data were processed

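Each of 158 deposited tables lists, for 1 library, the hairpins found and a normalised signal made by the authors; BWA 0.5.9 is named in the submitters' processing notes, while the counting and scaling steps are not given. All values were missing in 10 tables, of pools 3 and 13, which hold none of these hairpins. Dividing the deposited signal of a library by its smallest value gave whole reads, to within 0.01, for 27241 of 27241 values. A hairpin missing from a library counted as 0 reads.

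Reads of technical repeats were summed. Reads of a pool's targeting hairpins became CPM with TMM factors of edgeR 4.0.16, and log2(CPM + 1) was fitted per pool with limma 3.58.1 (R 4.3.3), with a variance trend, robust estimation and the 2 groups compared. The filter was a mean of at least 10 reads. edgeR's quasi-likelihood test on the recovered reads and DESeq2 1.42.0 were alternatives. The steps were tested on simulated data. PCR without molecular identifiers means that intervals cover counting error only.

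Members, lists and tests were chosen with earlier results of these data known. Text describes every hairpin of the 2 genes, the most correlated hairpin of another gene for each (1 is not reported here), and the called pathway hairpins with the largest change in each direction for lungs against day 0 and against culture; TRCN0000067116 was named after its value was seen. Replicate letters of the labels were checked as pairs: deviations of same-lettered libraries correlated over 0.1 in all 3 pairs for lungs against culture in pool 6 (0.41, 0.14 and 0.20), where a replicate block changed no call of an Il1a hairpin, and not in all pairs for the other comparisons of pools 6, 11 and 19. All 8 hairpins carry a RefSeq transcript that RefSeq's GRCm38.p6 table pairs with the same symbol. Replicate libraries of these pools all differed beyond sampling noise by chi-square tests.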

Additional observations from a re-analysis of the deposited data

Results flagged for a closer look

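Reads of pool 6 hairpins, those against Il1a among them, were found in lung library 11A, which belongs to pool 11. TRCN0000067048 reached 246 reads per 1000000 there, TRCN0000067049 158 and TRCN0000067051 64.9, above the highest levels in day 0 libraries of other pools (79.9, 126 and 41.4, all in library 4A). TRCN0000067050 was at 21.5 in 11A, below its 27.9 in 4A. Library 11A held 15048 reads of pool 6 in all, 0.314% of its reads, from 45 of the 52 pool 6 hairpins, and 2351 of these were of Il1a. The Nfkbiz values of pool 11 are shares of that pool's own hairpins, so these reads do not enter them. Where the reads came from was not tested.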

How the results depend on the processing

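Scalings other than TMM moved most hairpins of a pool by about the same amount, with the widest departures in pool 19, and the changes of the 8 hairpins relative to their pool kept their sign under all 5 scalings run, as a shift common to the pool leaves them. The median change of all hairpins for lungs against day 0 was -0.13 (TMM), -0.73 (library totals), -0.57 (control hairpins) and -0.82 (deposited values), and for culture -0.10, -0.64, -0.99 and -0.89. Signs turned for lungs against day 0 with the control total in TRCN0000067048 (-0.39), TRCN0000067049 (-0.044) and TRCN0000081761 (0.0067), with deposited values in TRCN0000067048 (-0.16) and with median centring in TRCN0000081761 (0.32). For culture against day 0 they turned with the control total in TRCN0000067048 (-0.14), TRCN0000067049 (-0.87) and TRCN0000067050 (-0.51), with deposited values in TRCN0000067049 (-0.59) and TRCN0000067050 (-0.23), with library totals in TRCN0000067049 (-0.13) and with DESeq2 in TRCN0000067051 (0.10). For lungs against culture TRCN0000067048 turned with library totals (-0.074), the control total (-0.25) and deposited values (-0.31). Leaving out 1 replicate turned TRCN0000081761 in lungs against day 0 (-0.49 to 0.066) and TRCN0000067051 in culture (-0.078 to 0.058). The 4 calls among the 8 hairpins for lungs against day 0 became 2 with edgeR, 1 with the control total and 1 to 6 without 1 replicate. With the replicate letter as a replicate block there were 2: TRCN0000067050, TRCN0000067051 and TRCN0000360678 were lost (limma adjusted p = 0.0775, 0.0843 and 0.173) and TRCN0000067049 was gained (0.0354), and for lungs against culture the block lost TRCN0000360677 (0.0931). For lungs against culture the 4 became 1 with the control total, 2 with deposited values and 1 to 5 without 1 replicate. Over all hairpins, 301 calls for lungs against day 0 became 148 to 388 without 1 replicate, 573 for culture became 364 with all 3 groups in 1 fit, and 221 for lungs against culture became 336 with DESeq2 and 142 to 249 without 1 replicate. The cause of the changed counts was not tested. The number of culture calls among the 8 was 5 to 7, and not always of the same hairpins: with the control total it was 6, without TRCN0000067048 and TRCN0000360677, with TRCN0000067049 and TRCN0000067051 lower, and with TRCN0000067050 turned. The culture changes of TRCN0000081761, TRCN0000081762 and TRCN0000360678 kept their direction and passed under all 23 alternatives run. Leaving out lung library 6A or 6C was chosen after seeing the data. Lung libraries of pool 6 differed by a chi-square of 138 to 1829 per degree of freedom, beyond counting error.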
